A study of Homo sapiens with 6 samples.

Results

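The genes described here encode the subunits of potassium, sodium and voltage-gated calcium channels in WM164, an established human melanoma cell line. They were taken from the deposited count table as the protein-coding genes whose symbol begins with KCN, with SCN followed by a digit, or with CACNA1. This rule found 121 of the 58870 genes in the table, among 19986 protein-coding genes. A gene was taken as expressed when it had at least 10 counts in at least 3 of the 6 libraries, and 45 of the 121 met this minimum. The names cover more than pores. Of the 121 genes, 89 belong to families whose proteins form a conducting pore, and 32 encode silent subunits, accessory subunits or sodium channel beta subunits. The accessory alpha2delta and beta subunits of calcium channels do not carry these symbols and are not included.

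Ion channels are membrane proteins that let selected ions cross the membrane through a gated pore. Potassium channels pull the membrane potential towards negative values, whereas voltage-gated sodium and calcium channels depolarize the cell, and calcium entering through them also acts as an intracellular signal. Silent subunits and accessory subunits conduct nothing alone and alter the gating or trafficking of the pores with which they assemble. In melanocytic cells, which do not fire action potentials as neurons do, potassium and calcium channels are known for their part in membrane potential, volume control and calcium signalling.

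The study compared WM164 cells overexpressing GFP, the control, with WM164 cells overexpressing T-MGM, a tethered dimer in which MITF, the lineage transcription factor of melanocytes, is joined by a flexible linker to MAFG, a small MAF transcription factor. Both constructs were lentiviral, driven by the EF1α promoter and carried blasticidin resistance, and both groups were grown in RPMI medium with fetal bovine serum. Each group had 3 RNA sequencing libraries. Nothing states that these came from separate cultures, so the p-values measure the spread between these libraries, which may be technical.

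Total counts were 35057239 to 38738065 in the GFP libraries and 44577774 to 59250663 in the T-MGM libraries. The channel genes took 0.0227% to 0.0259% of the counts of a library. At this depth, 3 counts correspond to 0.0506 to 0.0856 CPM, and this limit covers counting error only. In the deeper T-MGM libraries 41 to 50 of the 121 genes reached 10 raw counts, against 36 to 40 in the GFP libraries. The log2 fold change was -0.06 for MAFG (SE 0.04, adjusted p = 0.236 by DESeq2) and 0.08 for MITF (SE 0.02, adjusted p = 4.8e-07 by DESeq2). Neither construct gene was over 2-fold higher in T-MGM, a name used below for the libraries so labelled, so these genes do not check the labels, from which the groups are taken. All 6 melanocyte lineage markers examined were expressed, with a summed abundance of 964 to 977 TPM in GFP against 831 to 865 TPM in T-MGM libraries. DCT, MLANA and TYR were lower in T-MGM, by -2.49, -0.68 and -0.35 on the log2 scale, and SOX10, MITF and PMEL were higher by 0.11, 0.08 and 0.05. In TPM the direction of these 3 was the opposite, at 416 and 403 for SOX10, 138.4 and 132.5 for MITF and 252 and 237 for PMEL (group means in GFP and T-MGM). Keratinocyte markers summed to at most 0.16 TPM, and PTPRC and CD3E of leukocytes had at most 2 counts in any library. Of the neuronal markers, STMN2 had no count, and SNAP25 and RBFOX3 met the minimum. Of the muscle markers, MYL2 had no count, and ACTN2 and TTN met the minimum. PECAM1 was the expressed marker of the 2 endothelial markers and CD68 that of the 3 immune markers. CD68 was higher in T-MGM by 0.45 (SE 0.08, adjusted p = 8.75e-08 by DESeq2), without overlap between groups in normalized counts. Whether any of these marker levels has a part in the channel results was not tested.

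The question addressed first was which channel genes the cells express. The share of channel genes that met the minimum was 37.2%, against 63.8% of all protein-coding genes. Voltage-gated potassium pores were the largest family, with 11 of 30 genes expressed. Potassium accessory subunits had 10 of 18 expressed and silent potassium subunits 3 of 10. The calcium- or sodium-activated potassium pores, the inward rectifiers and the two-pore-domain potassium channels had 4 expressed genes each, of 8, 16 and 15. Sodium pores had 3 of 10 and sodium beta subunits 2 of 4. Among calcium pores, 1 of the 4 L-type genes, 1 of the 3 P/Q-, N- or R-type genes and 2 of the 3 T-type genes were expressed.

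**Figure D1:**
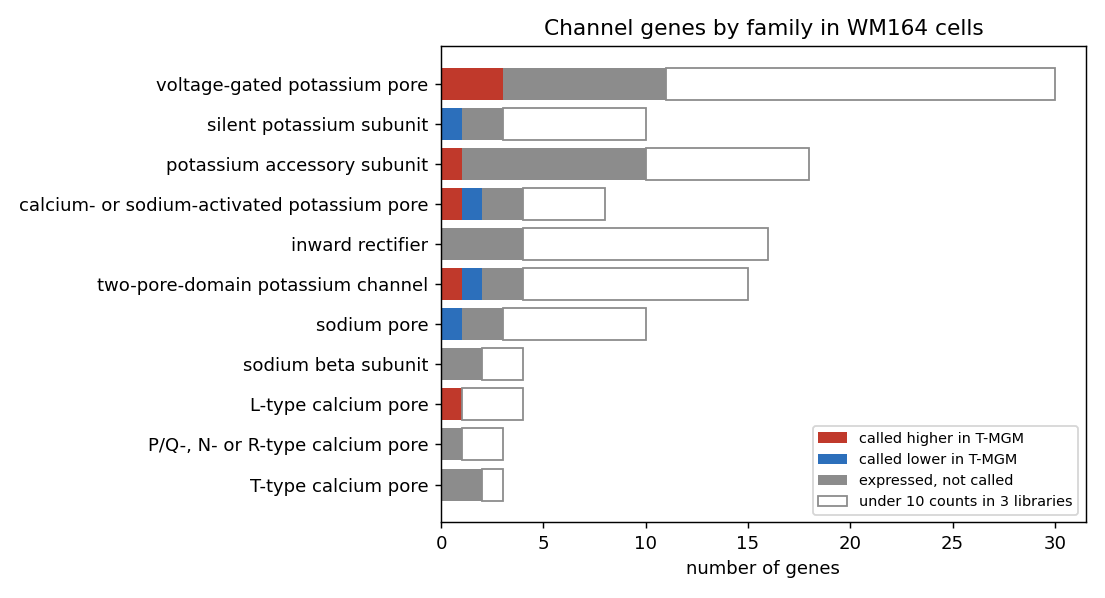
Number of channel genes (horizontal axis) in each of 11 families in WM164 cells, split into genes called higher or lower in T-MGM, other expressed genes, and genes under the minimum of 10 counts in 3 libraries. Voltage-gated potassium pores hold 30 genes, 11 of them expressed, and every family has at least 1 expressed gene.

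Within the large families a few members carried the expression. Of the 8 KCNA genes, which encode the delayed rectifiers and A-type channels of the Shaker group, KCNA2 alone met the minimum, and no other KCNA gene had over 8 counts in any library. The silent subunits that were expressed were KCNG1, KCNG3 and KCNS3. All 3 KCNAB genes, which encode the cytoplasmic beta subunits of Shaker-type channels, were expressed. The sodium-activated channel genes KCNT1 and KCNT2 were not.

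Some genes lay at the border of the minimum, as judged by the third highest count among the 6 libraries. CACNA1A, KCNK15 and KCNN3 were just inside at 10 counts, and KCNC1 was just outside at 9 counts. Of the 45 expressed genes, 30 had at least 10 counts in all 6 libraries. CACNA1A, KCNJ12 and KCNK15 met the minimum through the T-MGM libraries only, and SCN2A through the GFP libraries only, so a difference between groups was part of how these 4 genes were admitted. The called genes KCND3, KCNH3 and KCNH8 reached 10 counts in 2, 1 and 2 GFP libraries and in all 3 T-MGM libraries. They too needed T-MGM libraries to meet the minimum, so the same holds for them. Of the 76 genes under the minimum, KCNA5, KCNK16 and KCNU1 had no count in any library. A count of 0 allows up to 3 counts, so these genes were not detectable at this depth.

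Levels between genes were compared in TPM, the deposited abundance scaled for transcript length and depth. KCNG1, a silent subunit, had the highest mean level of all channel genes at 12.3 TPM, with 14.4, 14.9 and 14.5 TPM in GFP against 8.87, 10.8 and 10.4 TPM in T-MGM libraries. KCNAB2, a cytoplasmic beta subunit of Shaker-type channels, followed at 10.7 TPM, with 6.88, 7.28 and 6.27 TPM in GFP against 13.9, 14.2 and 15.8 TPM in T-MGM libraries. The order of these genes therefore differed between the groups, KCNG1 being first in all 3 GFP libraries and KCNAB2 in all 3 T-MGM libraries. The most abundant pore was KCNQ5, a slowly activating channel of the M-current family, at 6.89 TPM. KCNN4, the intermediate-conductance calcium-activated channel, was at 5.04 TPM. It was below KCNQ5 in each library, although the ranges of these genes over both groups overlapped. Also among the 10 highest were KCNIP3 at 4.29, KCNC4 at 3.48, KCNAB1 at 2.11, KCNA2 at 1.98 and SCN8A at 1.94 TPM. Ranges of neighbours in this lower part of the order, over both groups, also overlapped, apart from KCNC4 and KCNAB1. KCNIP3 was above KCNC4 in each GFP library and in no T-MGM library. All 121 genes together summed to 67.8 to 75.6 TPM in a library.

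**Figure D2:**
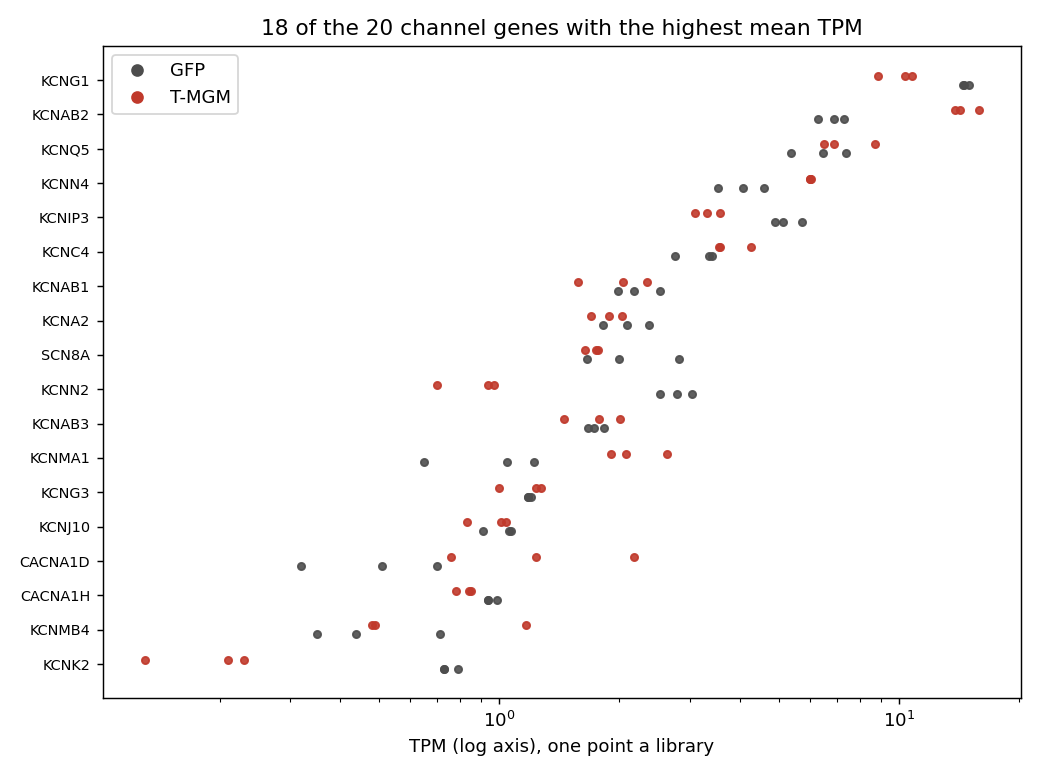
Abundance in TPM on a logarithmic horizontal axis of 18 of the 20 channel genes with the highest mean level, with 1 point for each of the 3 GFP and 3 T-MGM libraries. KCNG1 and KCNAB2 are highest, and in both the points of the groups lie apart in opposite directions.

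The effect of T-MGM was then addressed with DESeq2 (2-sided Wald test, Benjamini-Hochberg adjustment over the whole table). All 45 expressed channel genes received an adjusted p. Intervals of the fold change at 95% were computed from the DESeq2 SE, and normalized counts are counts divided by the DESeq2 size factor of the library. A gene was called when its adjusted p was at or under 0.05 and its change was over 2-fold. Of the 45 genes, 11 were called, 7 of them higher and 4 lower in T-MGM. Over all 15832 expressed genes tested, 4.91% were called, 3.64% higher and 1.27% lower, and over expressed protein-coding genes 5.00% were called. At an adjusted p at or under 0.05 alone, 19 of the 45 genes differed, 13 higher and 6 lower, where 45.7% of all expressed genes did, 22.9% higher and 22.8% lower. Among expressed protein-coding genes this share was 53.5%. The share of channel genes past the adjusted p was thus near the background. The share changed over 2-fold was above 4.91%, but it counts genes admitted through a group difference and is not matched for level, as set out below. The groups were without overlap in normalized counts in 23 of the 45 genes, 18 with T-MGM above and 5 with T-MGM below, against 53.5% of all expressed genes. That share was not split by direction. CACNA1A, KCNJ12, KCNK15 and SCN2A, which met the minimum through the libraries of a single group, are among the genes without overlap. KCNK15 and SCN2A are also among the calls. So are KCND3, KCNH3 and KCNH8, which are without overlap and needed T-MGM libraries to meet the minimum. A difference between groups had a part in admitting these genes, so they lend no support to either count. The median log2 fold change of the 45 genes was 0.13, with 28 positive and 17 negative values, and that of all expressed genes was 0.00 to 2 decimals.

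In the whole table the share of genes called depended on level. Of 18 channel genes averaging at least 100 normalized counts, 4 were called and 10 passed the adjusted p, where the shares of all genes at this level were 2.36% and 56.3%. Of 27 channel genes below that level, 7 were called and 9 passed the adjusted p, where the shares of all genes were 12.0% and 16.4%. These 7 include KCND3, KCNH3, KCNH8, KCNK15 and SCN2A, in which a difference between groups had a part in admission. The pore families held 9 of the calls among 30 expressed genes, 6 higher and 3 lower, and these calls include the same genes. The silent, accessory and beta subunits held 2 of the calls among 15 expressed genes. Of all expressed genes 4.91% were called, and a difference between pores and other subunits was not tested. Of the 26 genes that did not pass, 12 had a 95% interval of the fold change within 2-fold in either direction, and 14 had an interval that reached beyond it.

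**Figure D3:**
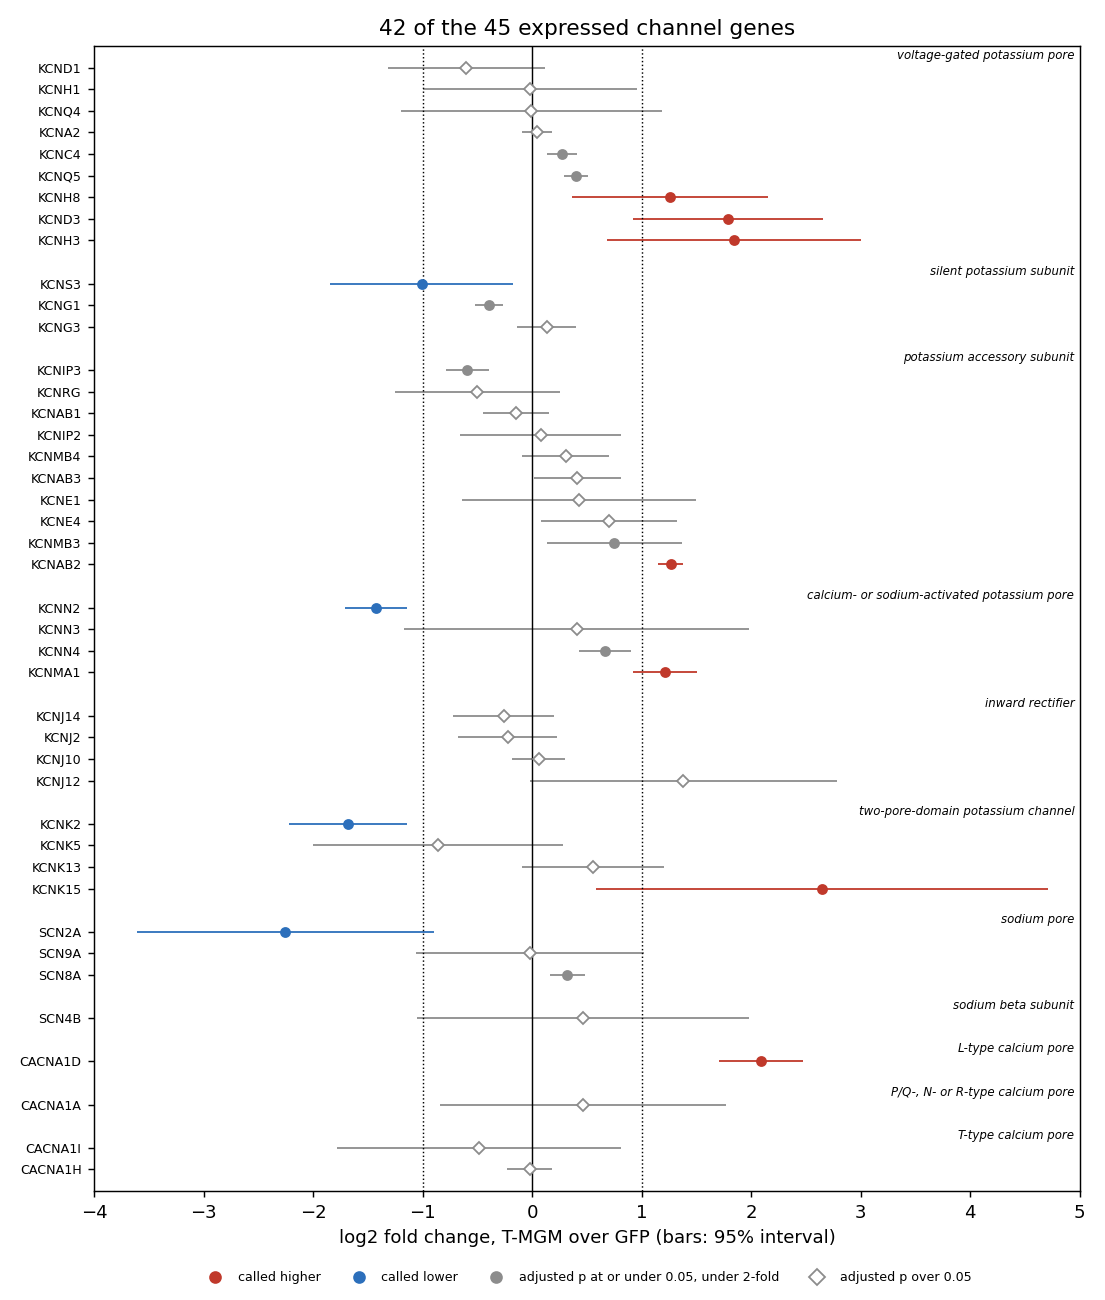
Log2 fold change of T-MGM over GFP (horizontal axis) with 95% intervals (bars) for 42 of the 45 expressed channel genes, grouped by family, with dotted lines at a 2-fold change. KCNK15 and CACNA1D lie farthest to the right at 2.64 and 2.09, and SCN2A farthest to the left at -2.26; the bars of genes with few counts are wide.

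Calcium pores showed a single call. CACNA1D (ENSG00000157388.17, chr3:53328963-53813733, GRCh38) encodes an L-type pore that opens at comparatively negative voltages and is known from pacemaking and neuroendocrine cells. Its normalized counts were 43.2, 78.0 and 53.7 in GFP against 219, 277 and 252 in T-MGM libraries. Each T-MGM library was above each GFP library. The mean rose from 58.3 ± 17.8 to 249.2 ± 29.1 normalized counts (SD, 3 libraries a group), a log2 change of 2.09 (SE 0.20, adjusted p = 3.58e-25 by DESeq2), which is 4.25-fold. It was called in each of the 13 alternative fits to the counts. In TPM it went from 0.51 ± 0.19 to 1.39 ± 0.722 (SD, 3 libraries a group), with a wider spread in T-MGM, and a limma fit to log2(TPM + 0.1) with no minimum gave 1.23 (adjusted p of 0.138). The other L-type genes, CACNA1C, CACNA1F and CACNA1S, were under the minimum. CACNA1H, a T-type pore that opens near the resting potential, had normalized counts of 355 ± 16.1 in GFP against 350 ± 23.6 in T-MGM (SD, 3 libraries a group), with a 95% interval of the fold from 0.853 to 1.14 (adjusted p = 0.897 by DESeq2). CACNA1A, the P/Q-type pore of presynaptic terminals, had 5 to 8 raw counts in GFP against 10 to 14 in T-MGM libraries, with an interval from 0.558 to 3.40 (adjusted p = 0.657 by DESeq2).

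Of the 11 expressed voltage-gated potassium pores, 5 passed the adjusted p, beside 45.7% of all expressed genes. All 5 were higher in T-MGM, beside 22.9%, and 3 were called, beside 4.91%. KCND3 (ENSG00000171385.9, chr1:111770662-111989668) encodes a transient A-type pore of heart and brain. Its normalized counts were 14.4, 9.74 and 12.6 in GFP against 55.7, 27.3 and 42.8 in T-MGM libraries, with no overlap. The log2 fold change was 1.79 (SE 0.44, adjusted p = 2.37e-04 by DESeq2), and the call held in each of the 13 alternative fits to the counts. In TPM without a minimum it gave 0.63 (limma adjusted p of 0.189). KCNH3 and KCNH8 encode members of the Elk branch of ether-a-go-go channels, which are known mainly from the brain. KCNH3 (ENSG00000135519.8, chr12:49539030-49558337) had 18.0, 1.08 and 5.71 normalized counts in GFP against 24.6, 27.3 and 35.4 in T-MGM libraries, a log2 fold change of 1.84 (SE 0.59, adjusted p = 0.00607 by DESeq2). KCNH8 (ENSG00000183960.9, chr3:19148510-19535642) had 15.6, 18.4 and 10.3 in GFP against 25.5, 27.3 and 52.4 in T-MGM libraries, a log2 fold change of 1.26 (SE 0.46, adjusted p = 0.0172 by DESeq2). The T-MGM libraries lay above the GFP libraries in both genes, but the calls rested on single libraries. KCNH3 was not past the test without GFP replicate 2 (1.31, adjusted p = 0.0642 by DESeq2), GFP replicate 3 (1.62, 0.262) or T-MGM replicate 3 (1.67, 0.0681), and without GFP replicate 1 its log2 fold change was 3.12 (2.57e-04). KCNH8 was not past it without GFP replicate 3 (adjusted p = 0.0949 by DESeq2) or T-MGM replicate 3 (0.84, 0.254).

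The abundant voltage-gated pores moved less. KCNQ5 rose from 1125 ± 48.4 to 1484 ± 39.3 normalized counts (SD, 3 libraries a group), a log2 fold change of 0.40 (SE 0.05, adjusted p = 1.14e-12 by DESeq2). KCNC4, a fast-inactivating Shaw-type pore, rose from 700 ± 41.3 to 846 ± 34.3 (SD, 3 libraries a group), a log2 fold change of 0.27 (adjusted p = 5.48e-04 by DESeq2). In both genes each T-MGM library lay above each GFP library in normalized counts. Neither rise passed the test once TPM replaced the counts. KCNQ5 then rose by 0.175 to 0.198 on the log2 scale (lowest adjusted p = 0.332 by limma), and its TPM values overlapped between groups. KCNC4 rose by 0.201 to 0.252 (lowest adjusted p = 0.15 by limma), without overlap in TPM. KCNC4 also lost the threshold after GC content and length correction, at 0.159. KCNA2, a Shaker-type delayed rectifier, had 934 ± 6.94 and 962 ± 91.8 normalized counts (SD, 3 libraries a group), with a 95% interval of the fold from 0.935 to 1.13 (adjusted p = 0.719 by DESeq2).

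Subunits that partner these pores went in both directions. KCNAB2 (ENSG00000069424.14, chr1:5990927-6101193) had 662, 716 and 712 normalized counts in GFP against 1648, 1646 and 1723 in T-MGM libraries. The groups lay far apart relative to their spread. Its log2 fold change of 1.26 (SE 0.06, adjusted p = 3.52e-101 by DESeq2) was 2.40-fold, held in each of the 13 alternative fits to the counts and was 1.00 to 1.09 in TPM fits (limma adjusted p of at most 5.46e-04). KCNAB1, which encodes a beta subunit that can inactivate Shaker-type channels, had 194 ± 24.2 and 176 ± 21.2 normalized counts (SD, 3 libraries a group), with a 95% interval of the fold from 0.734 to 1.12 (adjusted p = 0.523 by DESeq2). KCNIP3, a calcium-binding protein that assembles with the KCND pores, fell from 501 ± 33.6 to 332 ± 24.9 (SD, 3 libraries a group), a log2 fold change of -0.59 (SE 0.10, adjusted p = 1.64e-08 by DESeq2). KCND3 thus rose while KCNIP3 fell, although KCND3 was at 0.0467 and 0.13 TPM and KCNIP3 at 5.25 and 3.33 TPM, GFP first. KCND2 was under the minimum, with no library over 3 counts.

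Of the 3 expressed silent subunits, 2 passed the adjusted p, beside 45.7% of all expressed genes, and both were lower in T-MGM. KCNG1 had 1275, 1326 and 1263 normalized counts in GFP against 871, 1038 and 1023 in T-MGM libraries, with no overlap, and fell by 0.40 on the log2 scale (SE 0.07, adjusted p = 5.42e-09 by DESeq2). KCNS3 (ENSG00000170745.12, chr2:17877847-18361616), which slows the Shab-type channels it joins, had 26.4, 47.6 and 44.6 in GFP against 12.8, 13.7 and 31.7 in T-MGM libraries. The groups overlapped, since T-MGM replicate 3 lay above GFP replicate 1. Its log2 fold change was -1.01 (SE 0.43, adjusted p = 0.0478 by DESeq2), at the border of both thresholds, and it was called in 4 of the 13 alternative fits to the counts. Leaving out GFP replicate 2 or 3, or T-MGM replicate 1 or 2, gave -0.92 to -0.78 (adjusted p by DESeq2 of 0.172 to 0.216).

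**Figure D4:**
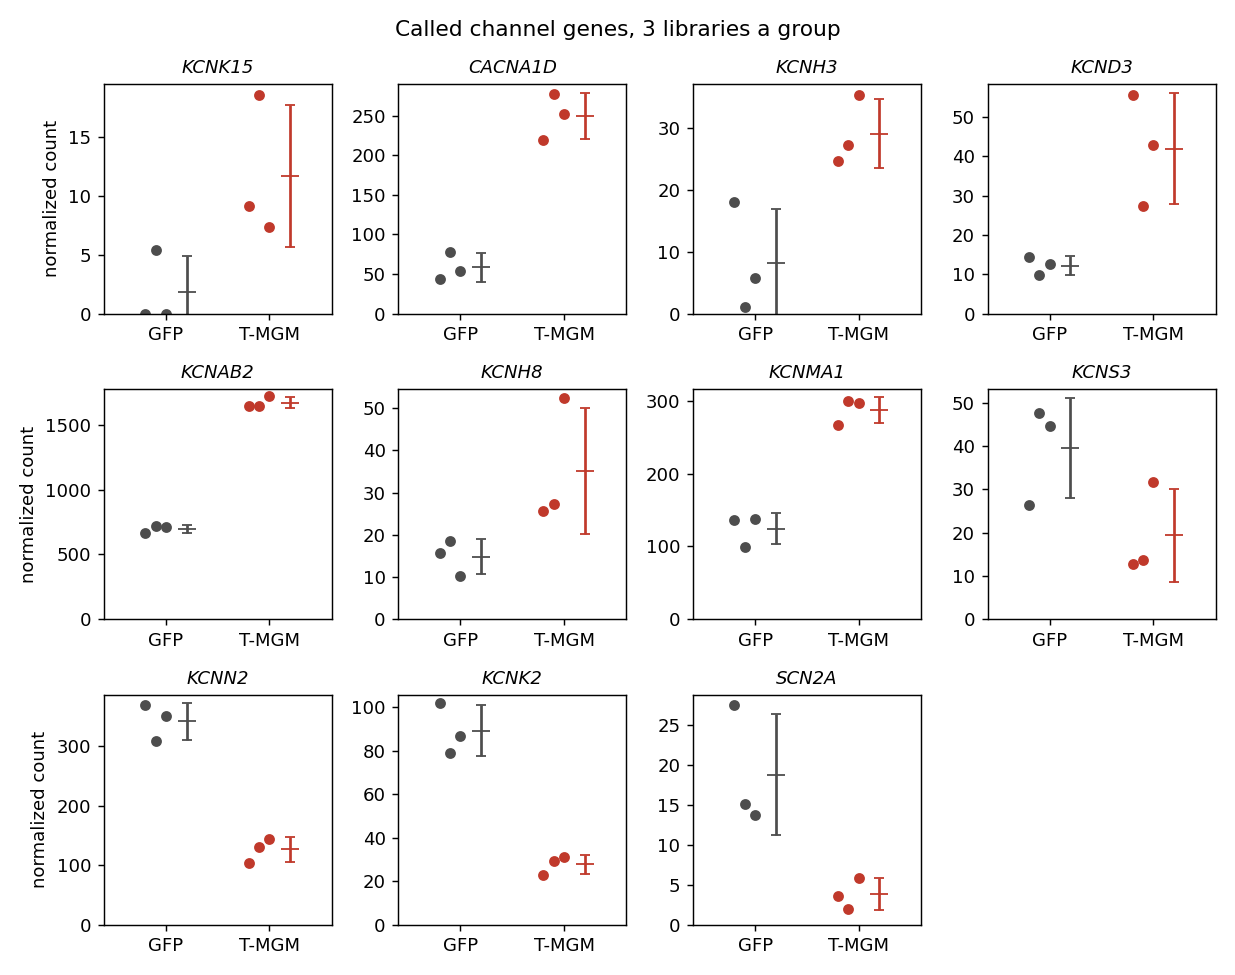
Normalized counts (vertical axes from 0, scale set for each gene) of the 11 called channel genes in each of the 3 GFP and 3 T-MGM libraries (points), with the mean and SD beside them. SD bars that would pass below 0 end at 0 for KCNK15 and KCNH3, and KCNS3 is the gene in which the groups overlap.

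Of the 4 expressed calcium-activated potassium channel genes, KCNMA1 and KCNN4 rose and KCNN2 fell. KCNMA1 (ENSG00000156113.23, chr10:76869601-77638369) encodes the large-conductance pore opened jointly by voltage and calcium. It had 137, 99.6 and 137 normalized counts in GFP against 266, 300 and 297 in T-MGM libraries, a log2 fold change of 1.21 (SE 0.15, adjusted p = 8.93e-15 by DESeq2). KCNN2 (ENSG00000080709.15, chr5:114055926-114496500), a small-conductance pore gated by calcium through calmodulin, had 368, 308 and 350 in GFP against 104, 131 and 145 in T-MGM libraries. It fell by 1.43 on the log2 scale (SE 0.14, adjusted p = 3.86e-22 by DESeq2), a 2.69-fold difference. Both genes were without overlap between groups and were called in each of the 13 alternative fits to the counts, with -1.58 to -1.02 for KCNN2 and 0.71 to 1.13 for KCNMA1 in TPM fits (limma adjusted p of at most 0.0322).

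KCNN3, the other expressed small-conductance pore, had 2, 5 and 10 raw counts in GFP against 12, 5 and 13 in T-MGM libraries, with a log2 fold change of 0.41 (SE 0.81, adjusted p = 0.758 by DESeq2). KCNN4, whose product carries the calcium-activated current of red cells and lymphocytes, had 229, 331 and 266 normalized counts in GFP against 451, 401 and 460 in T-MGM libraries, and rose by 0.66 on the log2 scale (SE 0.12, adjusted p = 2.89e-07 by DESeq2). In TPM, KCNN2 went from 2.78 ± 0.255 to 0.87 ± 0.148, KCNN4 from 4.07 ± 0.54 to 6.01 ± 0.0252 and KCNMA1 from 0.973 ± 0.293 to 2.21 ± 0.376 (SD, 3 libraries a group). In GFP libraries KCNN2 was above KCNMA1 in TPM, and in T-MGM libraries KCNMA1 was above KCNN2, in each library of the group. KCNMB3, an accessory subunit of the large-conductance channel, had 31.9 ± 7.97 and 53.7 ± 5.75 normalized counts (SD, 3 libraries a group), a log2 fold change of 0.75 (SE 0.32, adjusted p = 0.0463 by DESeq2). Its adjusted p was over 0.05 in 5 of the 6 fits that left out a library, at 0.0682 to 0.181.

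Two-pore-domain channels carry background potassium current. KCNK2 (ENSG00000082482.13, chr1:215005775-215237090), a leak channel opened by membrane stretch, heat and lipids, had 102, 79.0 and 86.8 normalized counts in GFP against 22.8, 29.3 and 31.0 in T-MGM libraries. Each T-MGM library was below each GFP library, and the gene fell by 1.68 on the log2 scale (SE 0.28, adjusted p = 8.51e-09 by DESeq2), a 3.21-fold difference that held in each of the 13 alternative fits to the counts. KCNK15 (ENSG00000124249.7, chr20:44745865-44752313), related to the acid-sensitive leak channels, had 0, 5 and 0 raw counts in GFP against 10, 19 and 10 in T-MGM libraries. Its fitted fold of 6.25 had a 95% interval from 1.495 to 26.1 (log2 change 2.64, SE 1.05, adjusted p = 0.0333 by DESeq2). It lost the call in 4 of the 6 fits that left out a library, those without GFP replicate 1 (2.08, adjusted p = 0.123 by DESeq2) or 3 (2.065, 0.127) or T-MGM replicate 1 (2.83, 0.342) or 2 (2.16, 0.256). Without GFP replicate 2, the only GFP library with a count, its log2 fold change was 5.75 (adjusted p = 0.00275 by DESeq2), a value set against libraries at 0. Without independent filtering its adjusted p was 0.0561 by DESeq2.

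No inward rectifier passed the test. KCNJ10, a potassium-buffering channel of glia that is also known from melanocytes of the inner ear, was the most abundant of the 4 expressed genes, with normalized counts of 246 ± 8.72 in GFP against 256 ± 15.1 in T-MGM (SD, 3 libraries a group). Its 95% interval of the fold ran from 0.882 to 1.23 (adjusted p = 0.77 by DESeq2). KCNJ12, named after its values were seen, had 3, 7 and 4 raw counts in GFP against 21, 13 and 13 in T-MGM libraries (adjusted p = 0.121 by DESeq2). KCNJ12 has a near-identical copy, KCNJ18, so its count is uncertain.

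Sodium channel genes went in both directions. SCN2A (ENSG00000136531.16, chr2:165194993-165392310), a pore of central neurons, had 23, 14 and 12 raw counts in GFP against 4, 2 and 8 in T-MGM libraries. Its log2 fold change was -2.26 (SE 0.69, adjusted p = 0.00379 by DESeq2), with no overlap between groups. Without GFP replicate 1 it was -1.89 (adjusted p = 0.0851 by DESeq2). SCN8A, a pore of axon initial segments and nodes, was the most abundant sodium channel gene. It had 507, 520 and 456 normalized counts in GFP against 618, 639 and 599 in T-MGM libraries, a log2 fold change of 0.32 (SE 0.08, adjusted p = 5.01e-04 by DESeq2). In TPM its direction was the opposite, at 2.16 ± 0.596 in GFP and 1.72 ± 0.07 in T-MGM (SD, 3 libraries a group), where limma gave -0.28 with a pseudocount of 0.1 (adjusted p of 0.296 with a minimum TPM and 0.531 without). The TPM fits shifted the median gene to between -0.15 and -0.12.

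SCN2A lies in a cluster of sodium channel genes on chromosome 2, and its neighbours were examined after the values were seen. SCN1A had 10, 2 and 3 raw counts in GFP and 0 in all 3 T-MGM libraries. SCN3A had 9, 1 and 7 against 4, 4 and 0. SCN7A had 0, 1 and 2 against 6, 0 and 0. SCN9A, a pore of sensory neurons, had 8, 28 and 12 against 20, 24 and 16, and its groups overlapped (adjusted p = 0.982 by DESeq2). In the whole-table fit SCN1A (adjusted p = 0.00947 by DESeq2) and KCNJ6 (0.0133), both under the minimum of counts, also passed the thresholds. KCNJ6, an inward rectifier opened by G proteins, had 8, 13 and 6 raw counts in GFP against 3, 0 and 1 in T-MGM libraries. These were the only 2 of the 23 genes under the minimum with an adjusted p that passed.

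Some of the counts are uncertain because exons of other genes overlap them in the GENCODE 44 annotation and the sources name both a stranded and an unstranded kit. Exons on the opposite strand overlapped 8 of the 11 called genes and 12 of the 19 genes past the adjusted p. The share over all expressed genes was not computed. The overlap was over 1000 bases for 2 called genes, CACNA1D with 1399 bases of CHDH and KCND3 with 1036 bases of DDX20. CHDH had mean normalized counts of 3.12 in GFP and 0.65 in T-MGM. DDX20 was at 2178 and 1939, against 12.2 and 41.9 for KCND3, and was lower in T-MGM by -0.17 on the log2 scale. KCNAB2, at 696 and 1672, shared 212 bases with NPHP4, which was at 805 and 717. KCNH3, at 8.26 and 29.1, shared 43 bases with MCRS1. MCRS1 was at 1880 and 2071, a log2 fold change of 0.14 (adjusted p = 0.00311 by DESeq2). KCNK15 shared 563 bases with RIMS4 and KCNK15-AS1, and RIMS4 was itself higher in T-MGM, at 4.17 and 25.3 mean normalized counts (log2 fold change 2.60, adjusted p = 1.66e-04 by DESeq2). KCNMB3 shared 3403 bases with PIK3CA, which was lower by -0.23, and 864 bases on its own strand with the pseudogene LRRFIP1P1, which was higher by 0.98. The part of these overlaps in the results was not tested.

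Promoter windows of the called genes were examined for the words that MITF and small MAF factors are known to bind. The windows, from RefSeq on GRCh38.p14, run from 250 bases before to 50 bases after a transcription start. The E-box words searched were CACGTG and CATGTG, and the MAF half-site words were TGCTGAC and TGCTGAG, on both strands, and none of these words contains another. An E-box word was present in 17.6% of all 35116 windows and a MAF half-site word in 10.5%. For the 89 channel genes with a window these shares were 16.0% and 9.9% of 131 windows. Windows were found for 9 of the 11 called genes, not KCNH3 and KCNK15. Of their 17 windows, 2 held an E-box word, in KCNAB2 and KCNK2, and 1 held a MAF half-site word, in SCN2A.

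The stretches around these 3 matches are shown because they are the occurrences in called genes, with the word in capitals and the strand of the gene, plus, printed 5′ to 3′. They lie at chr1:6034654-6034699 for KCNAB2, chr1:215005332-215005377 for KCNK2 and chr2:165239269-165239315 for SCN2A, and the first base of the word is at -14, -190 and -125 from the start.
KCNAB2: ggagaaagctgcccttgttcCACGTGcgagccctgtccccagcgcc
KCNK2: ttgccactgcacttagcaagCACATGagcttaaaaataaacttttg
SCN2A: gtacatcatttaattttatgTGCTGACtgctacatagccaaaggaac
CACATG in KCNK2 is CATGTG read on the other strand. KCNAB2, with the palindromic E-box, rose in T-MGM, and KCNK2 and SCN2A were lower. The words describe these windows and show neither a bound site nor its absence elsewhere.

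Other pore genes and channel partners that the symbols above do not take were followed in a separate list of 38 genes. Of the 37 found in the table, 19 were expressed, 9 of which were higher and 1 lower at the adjusted p, beside the 22.9% and 22.8% of all expressed genes. ANK3, the ankyrin that anchors sodium channels and KCNQ pores at the axon initial segment, had 52.8, 56.3 and 49.1 normalized counts in GFP against 789, 786 and 807 in T-MGM libraries. It rose by 3.91 on the log2 scale (SE 0.15, adjusted p = 1.37e-155 by DESeq2). NALCN, the sodium leak channel, rose by 1.66 (SE 0.44, adjusted p = 7.08e-04 by DESeq2) from 24.0, 5.41 and 12.6 to 47.4, 46.8 and 36.9 normalized counts, whereas UNC80, a subunit of the same channel complex, fell by 0.52 (SE 0.17, adjusted p = 0.00899 by DESeq2). FGF14, an intracellular partner of sodium channels, rose by 1.58 and SCNN1A, the alpha subunit of the epithelial sodium channel, by 1.13 (adjusted p by DESeq2 of 0.00727 and 0.0352). CALM2 and CALM3, whose product calmodulin gates KCNN channels, were higher by 0.18 and 0.17. HCN2, a hyperpolarization-activated pore, had 891 ± 90.7 and 926 ± 76.7 normalized counts (SD, 3 libraries a group), with a 95% interval of the fold from 0.938 to 1.16 (adjusted p = 0.622 by DESeq2). DPP6 and DPP10, partners of the KCND pores, were under the minimum.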

How the data were processed

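RNA was sequenced from 3 GFP and 3 T-MGM libraries of WM164, grouped by title. The authors trimmed reads with cutadapt 1.8.1, aligned them to GRCh38 with STAR 2.7.7a and summed uniquely aligned reads over genes with featureCounts. The count table was deposited without normalization. The authors also deposited TPM values from RSEM 1.3.0, used here for levels and alternatives. The annotation release is not given in the sources used here.

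Counts of all genes were tested with DESeq2 1.42.0 in R 4.3.3 (group as the only term, median-of-ratios normalization, no shrinkage). Genes named are those past the adjusted p, the most abundant expressed gene of each family and the 10 with the highest mean TPM. Members and lists were chosen with earlier results of these data known. Alternatives were edgeR 4.0.16, other scalings and filters, a replicate block, GC and length correction, limma 3.58.1 on log2(TPM + 1 or 0.1), with or without a minimum of 0.5 TPM in 3 libraries, and each library left out. The steps were tested on simulated data. Positions are from GENCODE 44. No protein sequences were used here. Some genes that enter the counts are not reported here by name or drawn.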

Additional observations from a re-analysis of the deposited data

How the results depend on the processing

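Of the 23 named genes, 290 values under alternatives kept direction and side of the threshold, 47 lost the threshold and 13 turned direction. Counts of channel genes moved most in TPM, where limma tested 20 of the 45 with a minimum TPM. With log2(TPM + 1) and a minimum, log2(TPM + 0.1) and a minimum, and log2(TPM + 0.1) without one, 2, 5 and 4 genes were called (11 in the counts), 1, 3 and 2 higher (7) and 1, 2 and 2 lower (4). In the same order, 7, 8 and 7 genes passed the adjusted p (19), 3, 4 and 3 of them higher (13). For the partner list, 2, 2 and 1 genes were higher (9), and without a minimum 0 were lower (1). Leaving out 1 library called 7 to 9 genes, 4 to 6 higher and 3 to 4 lower, with 7 (4 higher) without GFP replicate 3. The partner list then had 6 to 9 higher and 0 to 1 lower; UNC80 was lost without GFP replicate 2 or T-MGM replicate 3 and in the 3 TPM fits, where the 1 gene lower with a minimum was another. The partner alternatives were chosen after seeing the data. A threshold of 1.5-fold called 14 genes.

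In TPM, directions turned for KCNA2 (-0.106, -0.151 and -0.151), KCNJ10 (-0.039, -0.073 and -0.073) and SCN8A (-0.20, -0.281 and -0.281), in the same order of fits. KCNA2 was also at -0.013 with total counts as scaling and at -0.025 without T-MGM replicate 1, with up to 0.116 without T-MGM replicate 3. CACNA1H was at 0.016 without GFP replicate 2 and 0.033 without T-MGM replicate 3, and as low as -0.062 without T-MGM replicate 2. None of KCNA2, KCNJ10 and CACNA1H passed the test in the counts. The cause of these turns was not tested.

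Replicate numbers are shared between groups in the titles, and the deviations of same-numbered libraries correlated at -0.01, -0.06 and 0.03. No shared deviation by number was thus visible. These correlations cannot tell whether same-numbered libraries were handled together. With the replicate block, 9 genes were called and 15 passed the adjusted p, and KCNH8 was at 1.19 (DESeq2 adjusted p of 0.079) and KCNS3 at -1.09 (0.0698).

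With 10 counts required in all 6 libraries 30 genes were expressed, with 10 normalized counts in 3 libraries 40, with all 3 libraries of a group 39, and at 0.1 TPM in 3 libraries 37. Depth limits the genes under 100 mean normalized counts.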
